A study of Mus musculus with 3 samples.

Results

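Pthlh and Pth1r, the gene of parathyroid hormone-related peptide and the gene of its receptor, were followed across 3 arrays of mouse posterior frontal suture, the midline joint between the frontal bones. The members were every probe that the scanner files name Pthlh or Pth1r outside the control spots, which gave 1 probe for each gene and 2 of 55680 probes and of 35019 genes or unnamed probes in all. Neither gene therefore has a second probe that could check the first. The tissue came from C57BL/6 Runx2+/- mice at postnatal day 7 (P7), from Runx2+/+ (wild-type) mice at P7 and from wild-type mice at P5, and each group has 1 Agilent one-colour array. Osteoblasts cannot form without the transcription factor Runx2, and Runx2+/- mice have 1 intact copy of it. What is missing from the other allele, and the number of mice behind each RNA sample, are not stated in the labels. With no replicates, each difference is between 2 hybridised samples and carries no p-value. The errors given with single signals are the scanner software's own estimates for 1 spot.

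Pthlh encodes a secreted peptide whose N-terminal part resembles parathyroid hormone. Both ligands bind Pth1r, a class B G protein-coupled receptor that acts mainly through Gs, cyclic AMP and protein kinase A, and also through Gq. In the growth plate Pthlh keeps chondrocytes dividing and holds back their hypertrophy, in a feedback loop with Indian hedgehog. In bone, osteoblast-lineage cells carry the receptor and answer its ligands by changing genes for matrix breakdown and osteoclast formation. Pthlh is one of the signalling pathways that the title of the study names.

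The Pthlh and Pth1r results each rest on the single stretch of transcript that its probe matches, so both probes are shown, written 5′ to 3′ in lower case as the files give them. The Pthlh probe lies on chromosome 6 at 147200926 to 147200985 (minus strand, mm9), at bases 1158 to 1217 of its transcript, and its first 30 of 60 bases are printed. The Pth1r probe lies on chromosome 9 at 110624846 to 110624905 (minus strand, mm9), at bases 1907 to 1966 of its transcript. The exon or untranslated region that holds each probe was not looked up, as an mm9 annotation was not used here. The probes were alike in base composition, with 43.3% G or C for Pthlh and 45.0% for Pth1r.
Pthlh: tgggatcaaactgtctccccaggaaactgc
Pth1r: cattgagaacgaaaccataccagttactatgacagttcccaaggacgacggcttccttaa

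The arrays differed in brightness, and this bears on both genes. The 75th percentile of the processed signal, which is the spot brightness after the software's background and spatial corrections, was 124.3 intensity units on the Runx2+/- array, 22.75 on the wild-type P7 array and 52.07 on the wild-type P5 array. The share of probes that the software called well above background was 47.33%, 29.2% and 40.08% in the same order. Levels below are therefore log2 values relative to each array's own 75th percentile. The brightest Runx2 probe stood at 1.08 on the Runx2+/- array, 1.46 on the wild-type P7 array and 2.38 on the wild-type P5 array, while its other 2 probes missed the background call on the wild-type P7 array. Since the deleted part is not stated, these probes do not check the genotype. Along transcripts with several probes, the log2 difference changed towards the 3′ end by a median of 0.14 per kb for Runx2+/- minus wild type at P7 and 0.17 for P7 minus P5 wild type (1081 transcripts), and its part in the results below was not tested.

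Pthlh, the ligand, was dim on every array and was well above background only on the wild-type P7 array. Its processed signal was 10.99 ± 3.46 intensity units on the Runx2+/- array, 19.4 ± 3.90 on the wild-type P7 array and 5.69 ± 3.12 on the wild-type P5 array (software error of 1 spot). The P7 wild-type signal was the highest of the 3. The detection limit, taken as the lowest processed signal of any probe well above background, was 13.09 on the Runx2+/- array, 13.29 on the wild-type P7 array and 11.99 on the wild-type P5 array. Pthlh thus lay 0.25 log2 units below the limit on the Runx2+/- array, 0.55 above it on the wild-type P7 array and 1.07 below it on the wild-type P5 array. The software sets its call on the background-subtracted signal, and there Pthlh reached 0.671 times the passing value on the Runx2+/- array, 1.15 times on the wild-type P7 array and 0.371 times on the wild-type P5 array. The one passing call was therefore made by a margin smaller than the 20.09% error of that signal.

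The uncorrected spots were closer to each other still. The mean pixel brightness of the Pthlh spot was 78.6 on the Runx2+/- array, 84.5 on the wild-type P7 array and 74.4 on the wild-type P5 array, with a standard error over pixels of 2.81, 2.84 and 2.29. The median brightness of the surrounding background was 56, 57 and 55 units. The background thus made up most of the brightness at the spot on every array. Before any scaling, the Runx2+/- processed signal differed from that of P7 wild type by -8.45 units with an error of 5.21, a gap of 1.62 errors. The P5 wild-type signal differed from P7 wild type by -13.7 units with an error of 5.0, a gap of 2.75 errors.

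**Figure D1:**
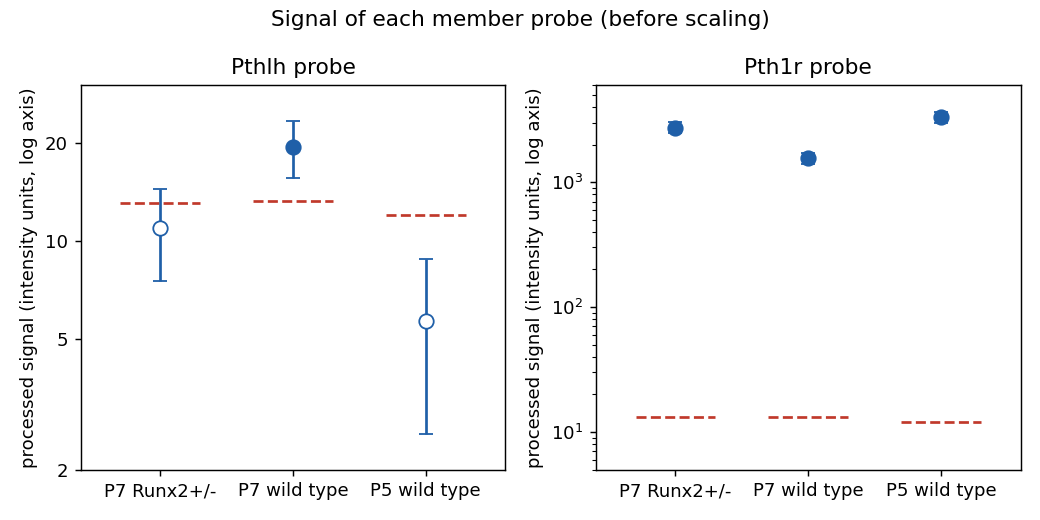
Processed signal in intensity units on a log axis for the Pthlh probe (left) and the Pth1r probe (right) on the Runx2+/-, wild-type P7 and wild-type P5 arrays. Points are single spots, bars the software's error, filled points are well above background, and dashed red lines mark each array's detection limit: Pthlh passes it only on the wild-type P7 array, at 19.4 against 13.29, while Pth1r lies far above it on all 3.

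Scaled for array brightness, Pthlh was at least 8.11-fold lower on the Runx2+/- array than on the wild-type P7 array, if its Runx2+/- signal is capped at the detection limit. Its level was -3.50 on the Runx2+/- array as measured, or -3.25 at that array's detection limit, and -0.23 on the wild-type P7 array. The software error of the P7 wild-type spot alone gave the 8.11-fold bound (-3.02 log2 units) a 95% interval of -3.59 to -2.45. This interval leaves out the error of the Runx2+/- spot. The background-subtracted Pthlh signal there lay 0.58 log2 units below its passing value, against 0.25 below the detection limit used. A cap at the passing value would give a smaller bound. With the 1st percentile of detected signals as the limit, the bound was 7.03-fold. Because Pthlh passed the background call on the wild-type P7 array alone, it could only come out lower on the Runx2+/- array or have no order. A 5.46-fold brighter Runx2+/- array would have shown a Pthlh level equal to that of P7 wild type as 106.2 ± 21.3 intensity units, against the 10.99 ± 3.46 that were measured. Without scaling the bound was -0.57 log2 units, and scaling to the 75th percentile added 2.45 to its size, making -3.02. In tissue samples such as these, fewer cells of a type and less RNA per cell cannot be told apart.

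Genes as dim as Pthlh show how that scaling behaved at its level. On the wild-type P7 array 1452 other genes well above background lay within 0.25 log2 units of Pthlh. Of these, 1348 (92.8%) were well above background on the Runx2+/- array too, with a median log2 difference of 0.08. The other 104 (7.16%) missed the background call as Pthlh did. At least 2-fold lower on the Runx2+/- array were 22.1% of these dim genes, against 13.8% of the 14429 genes that have an order. Pthlh was among the minority of these similarly dim genes that missed the background call there. Because all 1452 were chosen for passing the call on the wild-type P7 array, those that missed it on the Runx2+/- array could only come out lower. The 22.1% is thus partly set by that choice.

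For age, Pthlh was at least 3.71-fold higher on the wild-type P7 array than on the wild-type P5 array, if its P5 signal is capped at the detection limit. Its level was -0.23 on the wild-type P7 array and -3.19 on the wild-type P5 array as measured, or -2.12 at that array's detection limit. The software error of the P7 wild-type spot alone gave the 3.71-fold bound (1.89 log2 units) a 95% interval of 1.32 to 2.46. This interval leaves out the error of the P5 spot. The background-subtracted Pthlh signal at P5 lay 1.43 log2 units below its passing value, against 1.07 below the detection limit used. A cap at the passing value would give a smaller bound. With the 1st percentile of detected signals as the limit, the bound was 3.26-fold. An equal level would have given 44.5 ± 8.93 intensity units on the wild-type P5 array, where 5.69 ± 3.12 were measured. Of the 1452 similarly dim genes, 1332 (91.7%) were well above background at P5 as well. At least 2-fold higher at P7 were 15.0%, against 6.35% of the 14341 genes that have an order. That 15.0% is partly set by the choice of genes detected on the wild-type P7 array, since those not detected at P5 could only come out higher at P7. Both comparisons share the wild-type P7 array, so the lower Runx2+/- value and the higher P7 value of Pthlh rest on the same single spot. In all, 185 genes were well above background on the wild-type P7 array and on neither other array, 1.41% of the 13117 detected there, and 38.4% of them were dimmer there than Pthlh.

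Pth1r, the receptor, was bright on every array and was lower on the Runx2+/- array. Its processed signal was 2738 ± 274 intensity units on the Runx2+/- array, 1556 ± 156 on the wild-type P7 array and 3293 ± 329 on the wild-type P5 array. These signals were 209.1, 117.1 and 274.8 times the detection limit of the same arrays, or 7.71, 6.87 and 8.10 log2 units above it. Detection therefore limits none of the Pth1r values. Relative to the 75th percentile, Pth1r stood at 4.46 on the Runx2+/- array, 6.10 on the wild-type P7 array and 5.98 on the wild-type P5 array. The wild-type arrays lay close together and the Runx2+/- array below both.

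The genotype difference of Pth1r was -1.64 log2 units (software error 0.20, 95% interval -2.04 to -1.24), so Pth1r was 3.10-fold lower on the Runx2+/- array than on the wild-type P7 array. That interval covers the error of the 2 spots and not the spread between mice. Different probes of one gene disagreed by a root-mean-square SD of 0.57 in this comparison (2362 genes), a spread that a gene with 1 probe cannot show. Of the 12898 genes well above background on both arrays, 6.06% had a lower difference than Pth1r, and their median was 0.10. Among the 1290 genes of its own decile by level, 9.84% were at least 2-fold lower, 2.79% were at least 2-fold higher and 4.96% lay below Pth1r. Before scaling, the Runx2+/- signal was 1.76-fold higher than that of P7 wild type, so the direction of the difference depends on correcting for array brightness.

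For age, the Pth1r difference was 0.11 log2 units for P7 minus P5 wild type (software error 0.20, 95% interval -0.29 to 0.51). Its size was below the error of the spots, so the order of the 2 wild-type levels is not settled. The median of the 12858 genes well above background on both arrays was 0.08, and 53.4% of them lay below Pth1r. Among the 1285 genes of its own decile by level, the median was -0.18 and 77.0% lay below Pth1r.

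**Figure D2:**
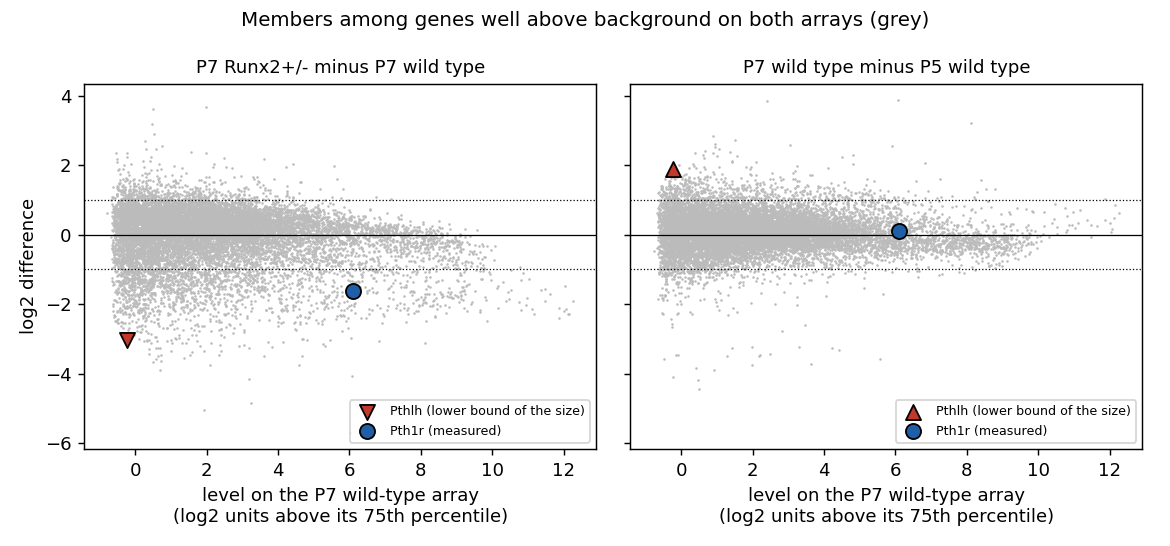
Log2 difference of Runx2+/- minus wild type at P7 (left) and of P7 minus P5 wild type (right) against the level on the wild-type P7 array, in log2 units above its 75th percentile. Grey points are single genes well above background on both arrays, dotted lines mark 2-fold; Pth1r (blue) lies at -1.64 and 0.11, and the red triangles are the bounds of Pthlh at the dim edge, -3.02 and 1.89.

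The other ligands and the other receptor of the family gave no level. Pth (parathyroid hormone), Pth2 (which signals through Pth2r) and Pth2r passed the background call on no array, with processed signals between 2.91 and 5.94 intensity units. Of the 5 ligand and receptor genes, Pth1r alone was well above background on all 3 arrays.

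Across the rest of the pathway, listed genes with an order mostly lay within 2-fold. Of 68 other genes listed around Pthlh signalling, 57 were above background on at least 1 array and 50 had an order between the P7 arrays. Of these, 7 (14%) were at least 2-fold lower on the Runx2+/- array and 0 were at least 2-fold higher, against 13.8% and 5.20% of all genes, and their median was 0.17. For age, 2 of 48 (4.17%) were higher at P7 by at least 2-fold and 0 were at least 2-fold lower, against 6.35% and 3.29% of all genes, and their median was -0.02. The share lower on the Runx2+/- array was thus close to that of all genes.

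Receptor partners and the cyclic AMP steps lay mostly within 2-fold. Of 8 receptor partners, 8 lay within 2-fold between the genotypes. Most genes did so, since 5.20% of all genes with an order were at least 2-fold higher and 13.8% at least 2-fold lower. Ramp2, an accessory protein that can associate with Pth1r, was 0.80 log2 units higher on the Runx2+/- array and Rgs2, which dampens Gq signalling, was 0.69 higher. Slc9a3r1, a scaffold that binds the tail of the receptor, was 0.80 lower. For age, Rgs2 was 0.72 lower at P7, while Ramp3, another accessory protein of that family, was at least 7.34-fold higher by its brightest probe, which missed the background call at P5, and 1.01 log2 units higher by its other probe. For genotype these Ramp3 probes stood at -0.58 and 0.82. In the list of G proteins, adenylyl cyclases, protein kinase A subunits and phosphodiesterases, 14 of 15 genes lay within 2-fold between the genotypes, with a median of 0.16. Gnas, the Gs subunit that couples the receptor to cyclic AMP, was 0.57 higher on the Runx2+/- array, yet its probes ran between -0.67 and 0.60. Prkar1a and Prkar2b, regulatory subunits of protein kinase A, were 0.72 and 0.70 higher, and Crem, a transcription factor of the cyclic AMP response, was at least 1.71-fold higher. For age, Crem was at least 1.73-fold lower at P7. The genotype exception was Akap13, an anchoring protein for protein kinase A, which was 1.07 lower with its brightest probe, while another of its probes was 0.42 higher.

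Among the effectors through which the receptor acts in cartilage and bone, 13 of 13 genes lay within 2-fold between the genotypes by their brightest probe and 12 of 12 between the ages. Most of all genes with an order did so too. At least 2-fold higher were 5.20% of them for genotype and 6.35% for age, and at least 2-fold lower 13.8% and 3.29%. Ccnd1 (cyclin D1) was 0.91 log2 units higher on the Runx2+/- array, Hdac4, the deacetylase that restrains chondrocyte hypertrophy, was 0.60 lower, and Sik3, a kinase that acts on class II deacetylases, was 0.71 higher at P7 than at P5 by its brightest probe. Its 3 probes ran between 0.02 and 0.71 for age and between -1.10 and 0.21 for genotype.

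Of 16 genes that respond to parathyroid hormone in bone, 9 were above background on any array. Of the 8 with an order between the P7 arrays, 2 were at least 2-fold lower on the Runx2+/- array, against 13.8% of all genes. Their median was 0.11, with 5 of the 8 above 0. Mmp13, a collagenase made by osteoblasts and hypertrophic chondrocytes, was 2.75 log2 units lower on the Runx2+/- array than on the wild-type P7 array and 1.26 higher at P7 than at P5. Fosb, an AP-1 factor, was 2.33 lower on the Runx2+/- array and 0.95 higher at P7 than at P5. After scaling, both genes were lowest on the Runx2+/- array and highest on the wild-type P7 array. Before scaling, Mmp13 kept that order, at 152.9 intensity units on the Runx2+/- array, 188.5 on the wild-type P7 array and 179.9 on the wild-type P5 array. Fosb did not, at 47.0, 43.1 and 51.0 in the same order of arrays. The size of both differences therefore depends on correcting for array brightness. Nr4a2, an immediate early nuclear receptor, was 0.93 lower on the Runx2+/- array. Its relative Nr4a1 was lower at P7 than at P5, with a log2 difference of -0.64. Tnfsf11, the osteoclast-forming RANK ligand, and Sost, the secreted Wnt inhibitor of osteocytes, passed the background call on no array. Tnfrsf11b, the decoy receptor for that ligand, was above background on the Runx2+/- array alone and at least 1.15-fold higher there.

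Of 6 hedgehog genes of the growth-plate loop with an order, 4 were at least 2-fold lower on the Runx2+/- array, against 13.8% of all genes. Ihh, the ligand that induces Pthlh in the growth plate, was 0.98 log2 units lower. Ptch1, the hedgehog receptor, was 2.12 lower at dim signals of 23.2 intensity units on the Runx2+/- array and 18.5 on the wild-type P7 array. Hhip, a hedgehog-binding inhibitor, was 2.02 lower and Gli1, a target of the pathway, was 1.70 lower. Smo was 2.18 lower with its brightest probe, but another Smo probe was 0.23 higher. For age, 6 of 6 lay within 2-fold, with Gli1 0.82 higher, Gli3 0.58 higher and Ihh 0.54 higher at P7.

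**Figure D3:**
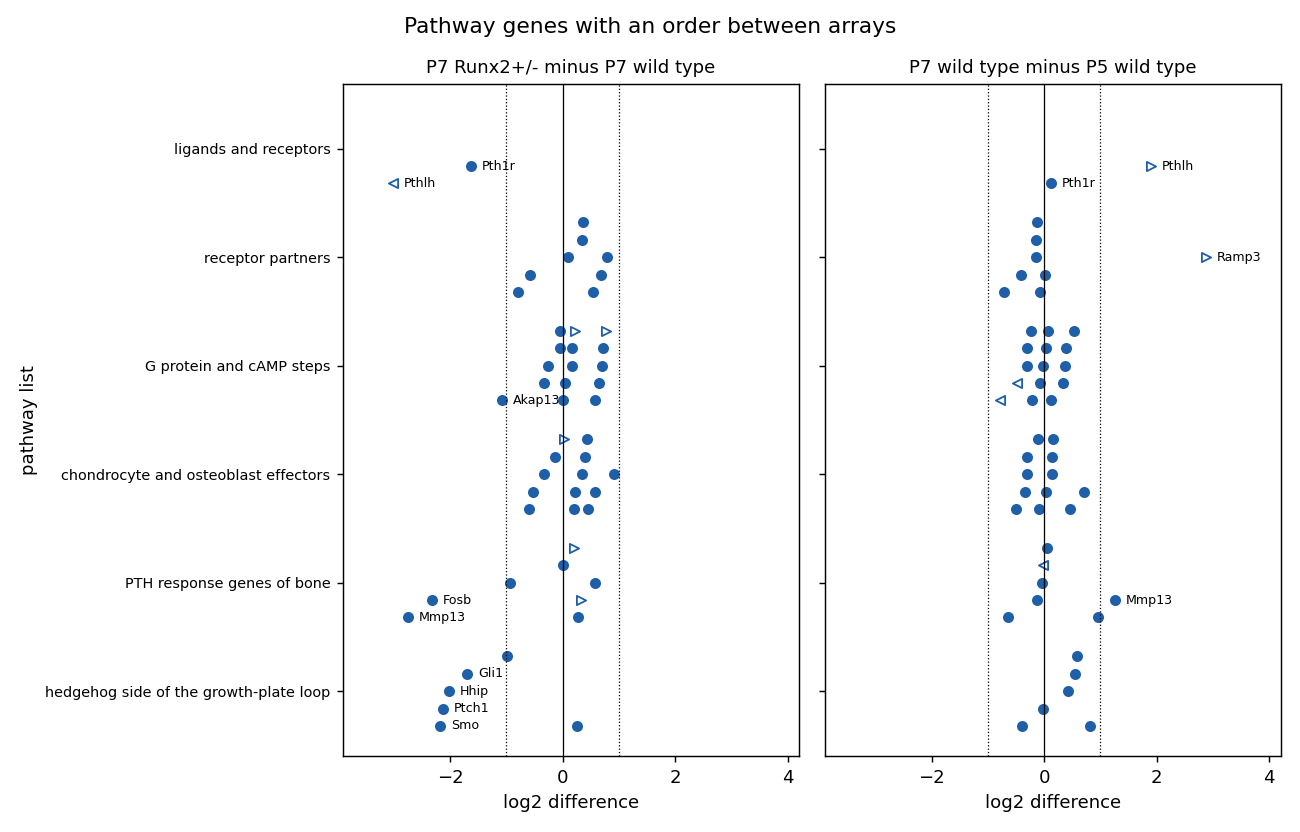
Log2 difference of each pathway gene with an order, by list, for Runx2+/- minus wild type at P7 (left) and P7 minus P5 wild type (right); filled circles were measured on both arrays, open triangles are bounds and dotted lines mark 2-fold. In the genotype panel 9 genes lie beyond 2-fold, all of them lower and 4 of them hedgehog genes, while in the age panel 3 lie beyond it, all of them higher.

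Markers of osteoblasts, chondrocytes and other cell types were read on the same arrays. Of 11 osteoblast markers, 8 were at least 2-fold lower on the Runx2+/- array, against 13.8% of all genes, with a median of -1.91, and Pth1r at -1.64 lay within their range of -2.66 to 0.12. Chondrocyte markers stood the other way, with 4 of 8 higher on the Runx2+/- array by at least 2-fold, 0 at least 2-fold lower and a median of 0.92, against 5.20% of all genes higher. For age, 3 of the 5 chondrocyte markers with an order were higher at P7 by at least 2-fold (median 1.06), against 6.35% of all genes. Of the 5 osteoclast markers with an order, 3 were as well (median 1.1). The chondrocyte markers Sox9 and Cnmd and the osteoclast marker Ocstamp had no order, being well above background at P5 and not on the wild-type P7 array. Matn1 was well above background on the Runx2+/- array alone. Of 11 osteoblast markers, 1 was at least 2-fold higher at P7 and 0 were at least 2-fold lower, against 6.35% and 3.29% of all genes. Their median was 0.62, with 3 of the 11 below 0. Col10a1, the collagen that defines hypertrophic chondrocytes, passed the background call on no array. Skin keratinocytes are a known source of Pthlh. Of 6 epidermal markers, Krt5, Krt10 and Lor were well above background on the Runx2+/- and wild-type P5 arrays, and 0 were on the wild-type P7 array, which had the fewest probes detected. Krt5 had a signal of 21.1 intensity units on the Runx2+/- array, 2.98 on the wild-type P7 array and 117.2 on the wild-type P5 array. On the Runx2+/- array 4 of 5 osteoclast markers were at least 2-fold lower (median -2.75), against 13.8% of all genes. Endothelial markers were split there, with 3 of 5 higher and 1 lower by at least 2-fold (median 1.51), against 5.20% and 13.8% of all genes. The lower one was Kdr by its brightest probe, while another Kdr probe was 1.87 log2 units higher. Of 5 suture mesenchyme markers with an order, 2 were at least 2-fold lower on the Runx2+/- array, against 13.8% of all genes. None was at least 2-fold higher, against 5.20% of all genes, though 3 lay above 0 (median 0.11). At P7, 4 of 5 neural and leptomeningeal markers were at least 2-fold lower than at P5 (median -2.01), against 3.29% of all genes. Neutrophil markers also differed, with 6 of 8 higher on the Runx2+/- array by at least 2-fold (median 2.27), against 5.20% of all genes. Of the 8, 1 was at least 2-fold lower there, against 13.8% of all genes. For age, 6 of 8 were at least 2-fold lower at P7 than at P5 (median -3.64), against 3.29% of all genes, and 1 of the 8 lay above 0. The part of all these cell types in the Pthlh and Pth1r values was not tested.

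Genes whose levels followed Pth1r over the 3 arrays were sought. Likeness was measured as the root-mean-square distance between log2 levels after removing each gene's mean, over the 12824 genes well above background on all arrays. A distance up to 0.16, the root-mean-square spot SD of the arrays, was reached by 193 genes (1.51%). Of the 5 nearest, 3 have a gene symbol, namely 2810410L24Rik at a distance of 0.009, Apol9b at 0.020 and Lrsam1 at 0.026, and the others carry only a locus or probe identifier. Among the marker and pathway genes, Kdr, the main receptor of vascular endothelial growth factor, came nearest at 0.14, followed by Sp7 (osterix), the osteoblast factor that acts after Runx2, at 0.15. For Kdr this holds for its brightest probe, since another was 1.87 higher on the Runx2+/- array. With 3 arrays such likeness is a description of these values.

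The promoters of both genes, as RefSeq gives them on GRCm38.p6 in windows of 300 bases that span the transcript start, were searched for the core motif of Runx factors. Neither TGTGGT nor TGCGGT was found on either strand in the 1 Pthlh window or in the 3 Pth1r windows. Of all 32851 such windows, 16.8% hold the first and 6.45% the second.

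The genotype difference of Pth1r kept its sign under each scaling tried, though without any scaling Pth1r was 0.82 log2 units higher on the Runx2+/- array. A bound of Pthlh could only be negative or absent here, so its sign under settings with a floor carries no information. The size of both differences depended on the background correction. Over the planned settings the Pth1r difference ran between -1.74 and -0.38, and relative to the median of genes above background on both arrays between -1.77 and -1.06. The Pth1r value nearest 0 came from normexp, a model-based background correction, run here with an offset of 50 intensity units added to each signal. Normexp moved that median to 0.68 when followed by the 75th percentile. The bound of Pthlh ran between -3.12 and -1.25, with the value nearest 0 after normexp, and its difference as measured, with no floor set, was -3.27. In the authors' deposited table, Pth1r had values of 3280 for Runx2+/-, 9853 for P7 wild type and 8375 for P5 wild type, and Pthlh had 11.76, 117.8 and 10.49 in the same order. On those values Pth1r was 1.59 log2 units lower for genotype.

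**Figure D4:**
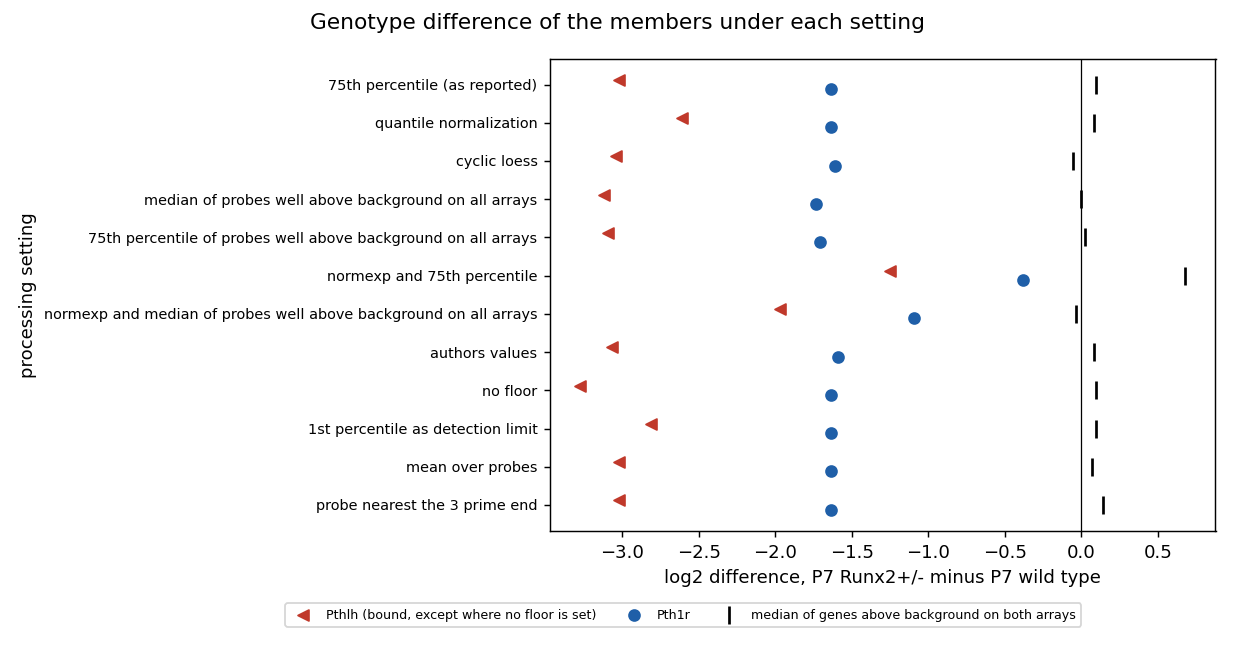
Log2 difference of Runx2+/- minus wild type at P7 for Pthlh (red triangles, a bound except where no floor is set) and Pth1r (blue circles) under each processing setting, with the median of genes above background on both arrays as a black tick. Both members lie below 0 and below the tick in all 12 settings, nearest 0 after normexp with the 75th percentile, at -1.25 and -0.38. A bound of Pthlh could not lie above 0.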

How the data were processed

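RNA of posterior frontal suture was hybridised to 1 Agilent one-colour array per group. The deposited scanner files hold spot intensity values on a linear scale, written by Feature Extraction 10.7.1.1 with probes placed on mm9, per the file headers, while the submitters' processing notes name version 9.5.1.1. The deposited processed signal is background-subtracted and spatially corrected and carries the software's error, which includes a 10% multiplicative term, per the file headers. A second deposited table holds the authors' processed values, whose scaling is not given in the sources used here. From these files, control spots and outlier-flagged spots (111 to 163 of 59305 per array) were left out, spots of a probe were averaged, and log2 values of the processed signal minus each array's 75th percentile were taken with Python 3.11.15, numpy 2.4.6 and pandas 2.3.3. No spot was saturated.

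A gene other than the members was read from its brightest probe, and 27234 of 55680 probes were named through RefSeq accessions. Where a probe was well above background on 1 array of a pair, its difference was set against the higher of the dim array's detection limit and the dim signal, and is a bound ("at least N-fold"), kept only where the detected array was higher; otherwise the gene has no order. Signal over background and the number of arrays limit the precision. The calculation was tested on simulated data. Alternatives were quantile normalization, cyclic loess and normexp (limma 3.58.1, R 4.3.3), other scaling sets, limits, floors, thresholds and probe choices, and the authors' values. Unscaled signals and the background-subtracted signal over its own passing value were added after seeing the data.

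The members and the gene lists were chosen with earlier results of these data known. Of 138 list entries, 3 had no probe. Named genes were the members, Runx2, the family's ligands and receptors, Gnas, Ihh, Ptch1, Gli1, up to 4 genes per pathway list and comparison with the largest differences of at least 1.5-fold, and the 5 genes nearest to Pth1r. Kdr, Sp7, Tnfsf11, Sost, Tnfrsf11b, Col10a1, Sox9, Cnmd, Matn1, Ocstamp, Krt5, Krt10 and Lor were named after their values were seen.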

Additional observations from a re-analysis of the deposited data

How the results depend on the processing

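With 1 array per group no replicate could be left out, and no paired analysis was possible because each group has a single array and nothing in the labels pairs arrays across groups. For Runx2+/- minus wild type at P7, the Pth1r difference of -1.64 became -0.38 after normexp with the 75th percentile, -1.10 after normexp with the median of the probes that passed on every array, and 0.82, the opposite sign, without scaling. The Pthlh bound of -3.02 became -2.61 after quantile normalization, -1.25 and -1.97 after the 2 normexp settings, and -0.57 without scaling. For P7 minus P5 wild type, Pth1r (0.11) became -0.65 and -0.36 after normexp and -1.08 without scaling, so its sign is not settled. The Pthlh bound of 1.89 became 0.57 and 0.87 after normexp, 0.70 without scaling and 2.20 on the authors' values. With no floor the difference as measured was 2.97, which is not a bound. Relative to the median of genes detected on both arrays, the ranges over 12 settings were -1.77 to -1.06 (Pth1r) and -3.37 to -1.93 (Pthlh) for genotype, and -0.39 to 0.17 and 0.84 to 2.89 for age, the Pthlh values with no floor included. Of the 70 pathway genes, members included, 0 were at least 2-fold higher and 9 lower on the Runx2+/- array. The higher count was 1 after quantile normalization, with no floor and with the mean over probes, 18 and 3 after normexp, 51 without scaling and 7 at 1.5-fold. The lower count was 4 after normexp with the 75th percentile, 0 without scaling and 14 at 1.5-fold. For age, 3 were higher and 0 lower. The higher count was 0 after both normexp settings, 1 without scaling, 1 among genes detected on both arrays and 7 at 1.5-fold, and the lower count was 2 after normexp with the 75th percentile, 38 without scaling and 3 at 1.5-fold. The log2 distance of Pth1r from the detection limit, taken from the 1st percentile of detected signals, the background SD or the passing value of the background-subtracted signal, was 7.50, 7.92 and 7.39 on the Runx2+/- array, 6.65, 7.16 and 6.49 on the wild-type P7 array and 7.92, 8.30 and 7.83 on the wild-type P5 array. For Pthlh on the wild-type P7 array the last 2 measures gave 0.98 and 0.20. Without scaling and at another threshold the changes follow from the construction of the setting. Normexp added an offset of 50 intensity units, more than the 75th percentile of the processed signal on the wild-type P7 array (22.75). Such an offset shrinks the log2 differences of dim genes by construction, and its share of the changes after normexp was not tested.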
